A study of Takifugu fasciatus with 6 samples.

Results

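The complement and coagulation proteins of the pufferfish Takifugu fasciatus were followed in liver RNA as 70 genes out of 20990 in the deposited table. A gene was a member when the Swiss-Prot protein name matched to it began with Complement, Coagulation factor, Fibrinogen, Prothrombin, Plasminogen, Antithrombin, Kininogen, Vitamin K-dependent protein or Heparin cofactor. The names gave 41 complement genes and 29 coagulation genes, which are described apart. Several genes share a name, since the 70 genes carry 47 protein names, and such copies are lettered here (C3-A to C3-E, CFB-A to CFB-D for factor B, F7-A to F7-C for factor VII). Some names caught by the rule belong to relatives rather than to the cascades themselves. Among the complement genes, 25 are components, regulators or receptors and 16 are C1q-like or C1q tumor necrosis factor-related proteins. Among the coagulation genes, 19 are clotting or fibrinolysis proteins and 10 carry related names such as fibrinogen-like protein.

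Juvenile fish in 6 aquaria gave 2 groups of 3 libraries, and each library held pooled livers of 6 fish. The control group (CG: G1, G2 and G3) stayed at 26 °C. The experimental group (EG: Ga, Gb and Gc) was cooled to 19 °C, kept there for 12 h, cooled to 12 °C and kept there for 24 h. All fish had 2 weeks at 26 °C first and were of the same stock, with no genetic alteration named.

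Counts per library summed to between 31150888 and 45548824. Levels are given as CPM, a gene's count relative to the TMM-scaled total of its library. Levels of different genes are compared as FPKM, which divides by coding length and by the library sum without TMM scaling. Differences between the groups can thus differ between FPKM and CPM. Shares of counts and count ratios between genes make no allowance for length. The p-values below rest on the spread between 3 pools a group. Pools even out differences between fish, and whole liver was sequenced, so fewer cells of a type and less RNA per cell cannot be told apart. The 13 tested hepatocyte markers summed to 195595 to 226703 CPM in CG against 240743 to 288217 CPM in EG. Most of that sum was tf, with means of 142798 CPM in CG and 151210 in EG without passing, and apoa1, with 52550 and 81129. Of the 13 markers 9 rose and 2 fell by edgeR, where 37.7% of all genes with a mean of at least 10 CPM rose and 18.9% fell. Exocrine pancreas enzymes summed to 5465 to 23632 CPM in CG against 570 to 20798 CPM in EG, with 0 of 10 tested passing by edgeR, 0 at an unadjusted p under 0.05 and 0 by DESeq2.

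Complement is a cascade of plasma proteins that tags microbes and punctures their membranes. The classical pathway starts at C1, the lectin pathway at carbohydrate-binding lectins and the alternative pathway at C3 with factors B and D, and all of them cleave C3 and then C5, after which C6 to C9 assemble into the membrane attack complex. Coagulation is a second protease cascade, in which vitamin K-dependent zymogens and their cofactors V and VIII generate thrombin, thrombin turns fibrinogen into fibrin, factor XIII cross-links it and plasmin dissolves it. In vertebrates the hepatocyte makes most of these proteins, and many of them are acute phase proteins.

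In the cold, 10 complement genes rose and 2 fell among the 31 that had enough reads to be tested, whereas 2 coagulation genes rose and 8 fell among 23 tested. The genes were called by edgeR's quasi-likelihood test at an adjusted p under 0.05 over all 14357 tested genes, of which 23.7% rose and 21.7% fell, 45.4% in all. The complement genes thus rose in 32.3% and fell in 6.45% of cases, and the coagulation genes rose in 8.7% and fell in 34.8%. C1q-like relatives gave 3 of the 10 complement rises. Of the 25 complement components, regulators and receptors alone, 7 rose (28%) and 2 fell (8%). The 7 include C1qbp, counted as a receptor but mainly a mitochondrial protein. Of the 18 tested clotting and fibrinolysis proteins, 2 rose (11.1%) and 7 fell (38.9%). Among the 6149 genes with a mean of at least 10 CPM, a level most of the members exceed, the shares were 37.7% and 18.9%, so the share of complement genes that rose was near the share of well expressed genes. With the study's further demand of a fold above 2 (DEGs), 7 complement genes were higher and 1 was lower, against 13.7% and 15.4% of all tested genes. For coagulation, 1 DEG was higher and 4 were lower. The median log2 fold change of EG over CG was 0.14 for complement, -0.17 for coagulation and -0.03 for all tested genes.

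The CPM of the groups did not overlap for 19 of 31 complement and 18 of 23 coagulation genes, beside 57.8% of all tested genes. The 16 members left untested had no read in 10 cases and 1 to 15 reads over the 6 libraries in the other 6, and they were mostly C1q-like, C1q tumor necrosis factor-related and fibrinogen C domain genes. The counts depended on the scaling and on single libraries. With library totals in place of TMM, the median of all genes moved to -0.37, 7 complement genes rose and 8 fell, and 1 coagulation gene rose and 12 fell. The 8 coagulation genes that fell became 4 without G1, 3 without G2 and 5 without Ga. The 2 complement genes that fell became 4 without Ga, and the 2 coagulation genes that rose became 4 without Gc.

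**Figure D1:**
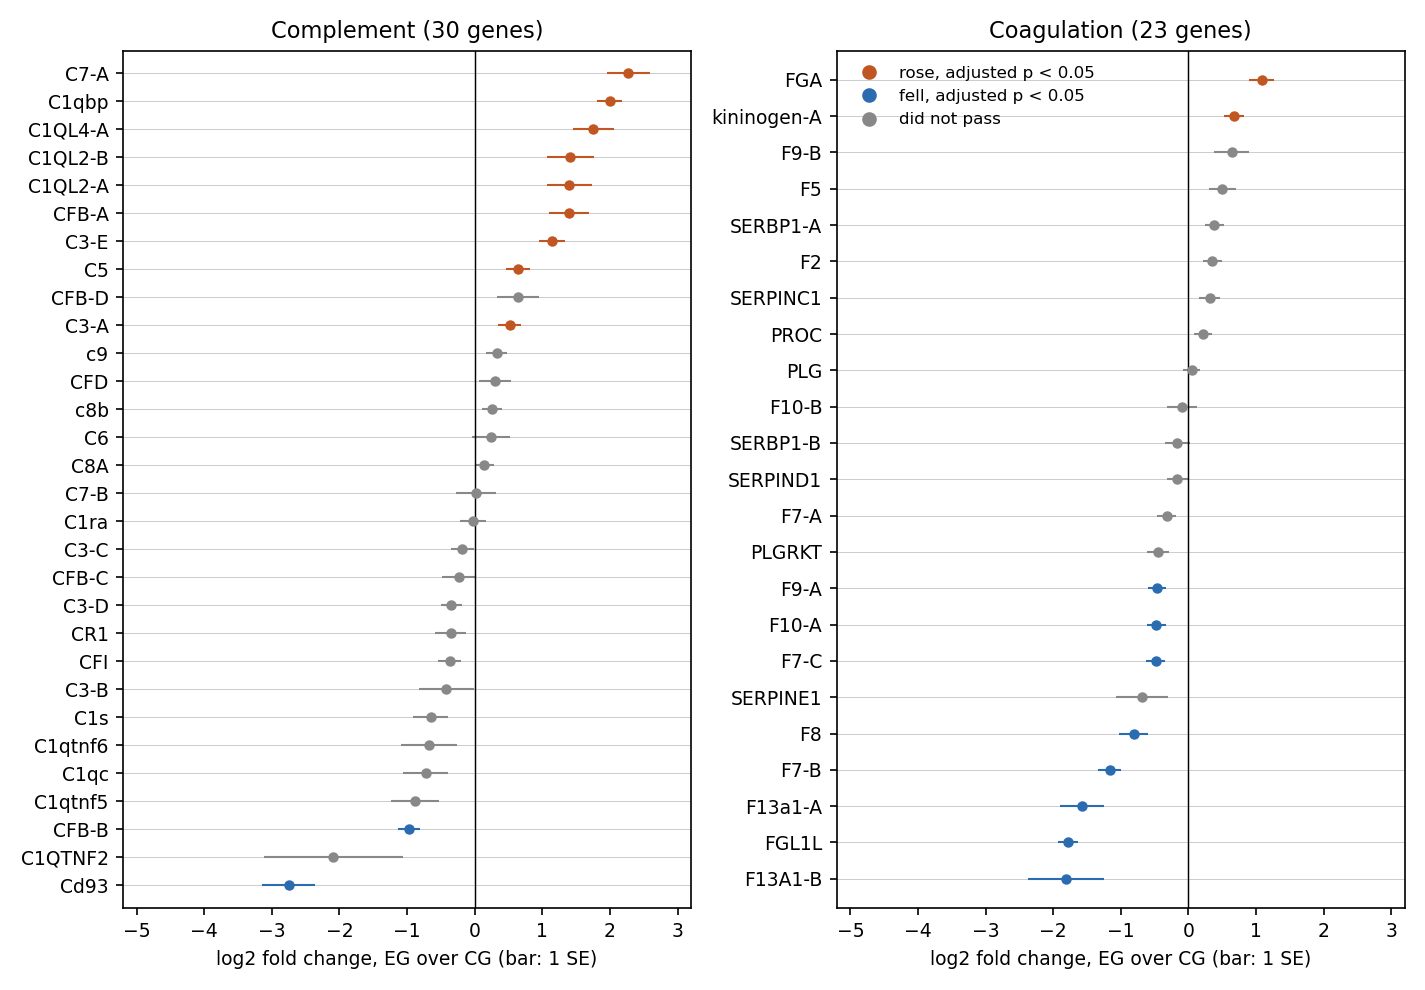
Log2 fold change of EG over CG for the tested complement genes (left, all but 1) and coagulation genes (right, 23); points are estimates from edgeR, bars are 1 SE, and colour gives the call at an adjusted p under 0.05. C7-A at 2.27 and Cd93 at -2.75 are the extremes of complement, and FGA at 1.09 and F13A1-B at -1.81 those of coagulation.

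Complement messages were among the most abundant of the liver. C9, the pore-forming last component, reached 5494 FPKM in CG and 5395 in EG (means of 3 libraries) and ranked 15th of all genes. With TMM scaling its means were 9082 CPM in CG and 11362 CPM in EG. CFI, the protease that inactivates C3b, and C3-A, the most abundant C3 copy, followed at 3880 and 2665 FPKM in CG. Together the 41 genes took 5.28% ± 0.257 of all counts in CG and 5.76% ± 0.466 in EG (SD, n = 3), a difference of 0.484 percentage points with overlapping libraries. Without Ga the difference was 0.219 points, and by FPKM it was 0.184 points. The 4 genes with most counts (C3-A, C9, CFI and C3-E) held 60.1% of the complement counts in CG and 55.9% in EG. Within these counts the part of CFI was 13.8% to 16.8% in CG and 7.66% to 8.93% in EG.

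At the head of the classical pathway, 0 of 3 genes passed by edgeR, with 1 lower at an unadjusted p under 0.05 and 1 by DESeq2. C1qc is named as a chain of the recognition molecule C1q, but its match was weak (E value 5e-13) and it has no KEGG entry. The name may thus mark only a C1q domain. C1qc had 65.9, 67.6 and 73.8 CPM in CG and 67.8, 25.2 and 32.4 CPM in EG, with Ga at the CG level. Its log2 fold change was -0.72 ± 0.33 (SE), with an adjusted p of 0.112 by edgeR. Without Ga its log2 fold change was -1.26 with an adjusted p of 0.00195, the lowest of its alternatives, which reached 0.273. C1ra, a protease of the C1 complex, overlapped between the groups at 1411 to 1903 CPM in CG and 1354 to 1922 CPM in EG. The adjoining C1s had 10 CPM or less in every library and was the 1 lower gene above. Its log2 fold change was -0.65 ± 0.25, with an unadjusted p of 0.0334 and an adjusted p of 0.068 by edgeR and 0.047 by DESeq2. The groups barely missed overlap, with 8.40 CPM in the lowest CG library and 8.21 CPM in the highest EG library.

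Of the 6 genes named C3 or C5, 3 rose and 3 did not pass. The gene labelled C3-E moved furthest, with 2862, 2916 and 2938 CPM in CG and 8114, 6093 and 5109 CPM in EG, so that all EG libraries lay above all CG libraries. Its level was 2.22-fold higher in EG (log2 fold change 1.15 ± 0.19; adjusted p = 0.00218). The Swiss-Prot match calls it C3, but its KEGG entry calls it C4-like, the component that the classical and lectin pathways cleave. Its coding length is 10002 bases, against 3903 for C3-A and 4407 for C5, and whether it covers only 1 gene was not tested.

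C5, the source of the C5a peptide and the start of the membrane attack complex, had 3054, 2888 and 2389 CPM in CG and 5131, 4079 and 3781 CPM in EG, without overlap (0.64 ± 0.18; adjusted p = 0.02). C3-A, at the point where the pathways meet, had 10013, 9557 and 8194 CPM in CG and 15013, 10916 and 13787 CPM in EG, 1.43-fold higher (0.52 ± 0.17; adjusted p = 0.0388). These smaller changes lost their call with other scaling and with some libraries left out, while the log2 fold changes stayed positive. With library totals C5 was at 0.30 and C3-A at 0.17, with adjusted p-values of 0.166 and 0.361 by edgeR. With upper quartile factors C5 was at 0.45 and C3-A at 0.33, with adjusted p-values of 0.0652 and 0.16. C5 was at 0.54 without G3 and 0.51 without Ga, with adjusted p-values of 0.0762 and 0.063, within a range of 0.00167 to 0.166 over 12 alternatives. C3-A was at 0.54 without G2, 0.44 without G3, 0.42 without Ga and 0.49 without Gc. Its adjusted p-values there were 0.0838, 0.131, 0.121 and 0.0947, within a range of 0.0111 to 0.361.

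The other C3 copies differed from both. C3-B had 551, 711 and 729 CPM in CG and 711, 195 and 584 CPM in EG, with Gb far below the rest (-0.42 ± 0.41; adjusted p = 0.436). C3-C ran from 510 to 550 CPM in CG and from 416 to 573 CPM in EG, and C3-D, 1 gene away from it on the same scaffold, from 12.5 to 14.7 and from 9.76 to 11.8. Reads of the 5 copies could be shared or split by the counting, so single copies are less certain than C5.

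Of the 4 genes named factor B, 1 rose and 1 fell. Factor B is the serine protease of the alternative pathway convertase, and C2 is its close relative in the classical pathway. CFB-A had 2297, 2311 and 1920 CPM in CG and 8572, 4796 and 3795 CPM in EG, a 2.63-fold higher level with Ga highest and no overlap (1.39 ± 0.29; adjusted p = 0.0062). CFB-B had 1413, 1328 and 1464 CPM in CG and 810, 753 and 581 CPM in EG, a 1.96-fold lower level (-0.97 ± 0.17; adjusted p = 0.00268). The KEGG entry of CFB-A is factor B and that of CFB-B is C2-like. The ratio of CFB-A to CFB-B counts, which no scaling of libraries alters, was 1.31 to 1.74 in CG and 6.37 to 10.6 in EG. CFB-C, at 79.3 to 157 CPM in CG and 92.1 to 117 CPM in EG, CFB-D, at 4.87 to 12.1 and 11.9 to 16, and factor D, the protease that activates factor B, at 67.3 to 104 and 85.4 to 141, did not pass.

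Of the 6 genes of the membrane attack complex, 1 rose and 5 did not pass. C7 anchors the growing complex in the membrane. C7-A had 528, 589 and 404 CPM in CG and 3663, 2096 and 1597 CPM in EG, where even the lowest EG library stood well above the highest CG library. It was 4.84-fold higher, the greatest rise of all tested members (log2 fold change 2.27 ± 0.32; adjusted p = 0.00102), and had an adjusted p of at most 0.00702 in all 12 alternatives.

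The other members of that complex did not pass. C6 had 1254, 1462 and 1445 CPM in CG and 1927, 930 and 2064 CPM in EG, with Gb below and Ga and Gc above every CG library (0.24 ± 0.28; adjusted p = 0.517). Without Gb its log2 fold change was 0.53 with an adjusted p of 0.0341, within a range of 0.0341 to 0.908 over 12 alternatives. C7-B, the lesser copy of C7, ran from 75.5 to 88.0 CPM in CG and from 46.7 to 117 CPM in EG, again with Gb lowest.

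The chains C8A and C8B, which are parts of 1 protein, had log2 fold changes of 0.14 ± 0.14 and 0.25 ± 0.15. C9 had 9197, 8926 and 9123 CPM in CG and 12901, 9621 and 11563 CPM in EG, which do not overlap but gave 0.32 ± 0.15 with an adjusted p of 0.123. The direction of C6, C8A, C8B and C9 was negative with library totals, between -0.03 and -0.19, so that no direction is given for them. Gb was the lowest EG library for 19 of the 31 complement genes (61.3%) and for 33.6% of all tested genes. Ga was the highest for 16 of them (51.6%), beside 34.4% of all.

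**Figure D2:**
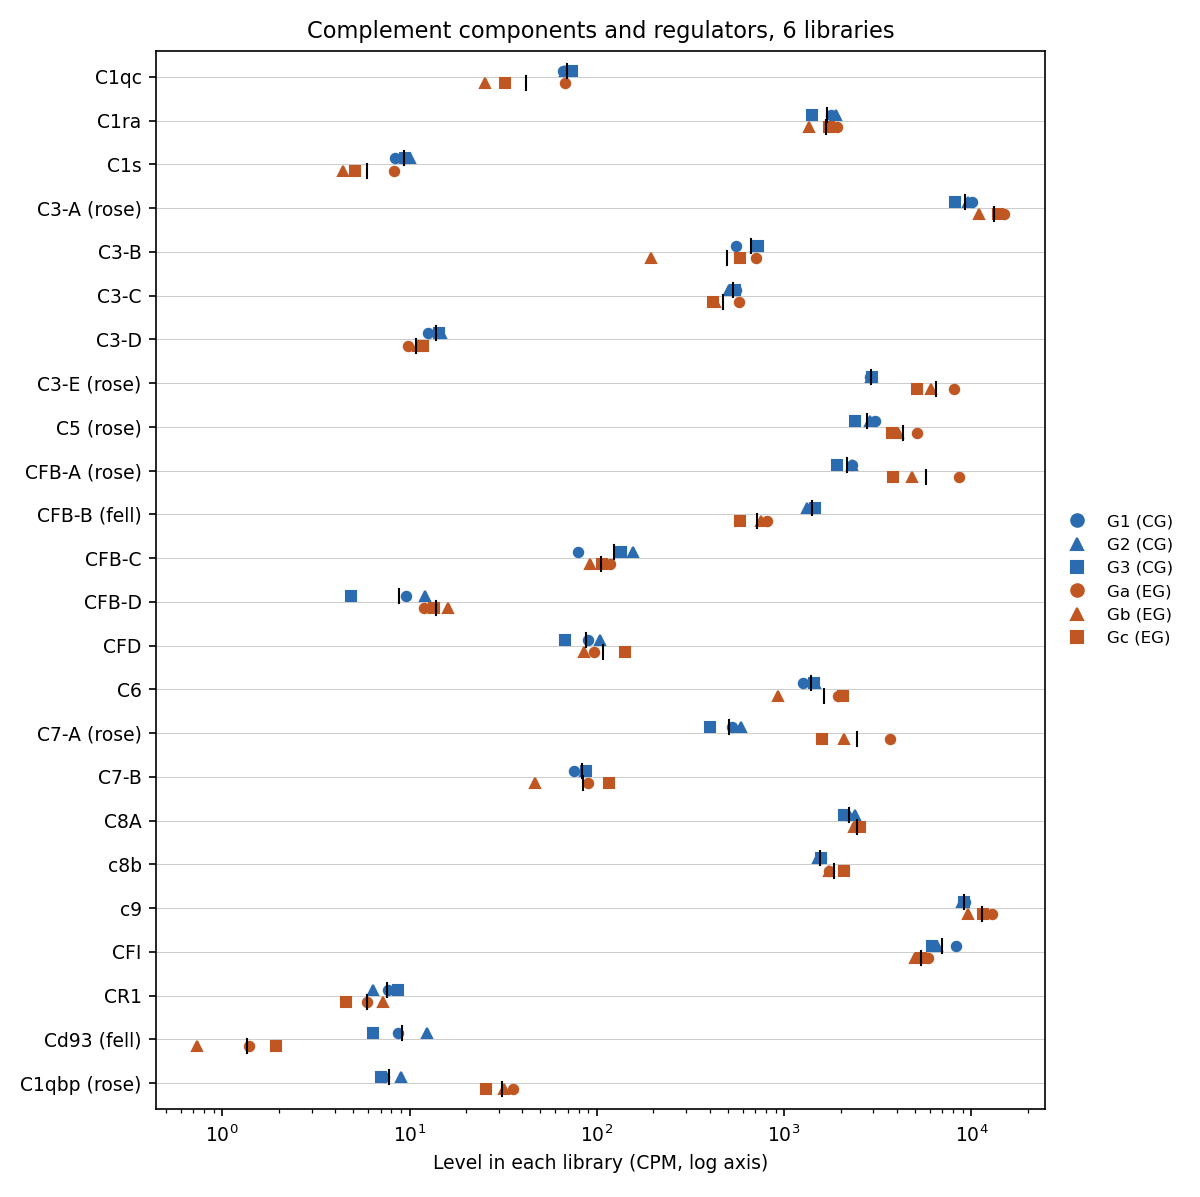
CPM on a log axis of the 25 complement components, regulators and receptors, all but 1, in each library; symbols are libraries (blue CG, orange EG), black ticks are group means of 3 libraries, and genes are ordered from C1 to receptors. C7-A, CFB-A, C3-E and C1qbp lie wholly to the right of CG in EG, CFB-B and Cd93 wholly to the left, and Gb stands low for C3-B, C6 and C7-B.

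Among the regulators, CFI had 8277, 6545 and 6129 CPM in CG and 5851, 4977 and 5380 CPM in EG, lower in all 3 EG libraries than in any CG library without passing (-0.37 ± 0.17; adjusted p = 0.105). With library totals it was -0.71 with an adjusted p of 0.00623, the lowest over the 12 alternatives, which reached 0.261.

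Among receptors, 2 genes changed strongly and in opposite directions at low levels. Cd93, named C1q receptor, is known in mammals from endothelial and myeloid cells, and it had 8.67, 12.3 and 6.42 CPM in CG and 1.39, 0.73 and 1.93 CPM in EG. The 6.75-fold lower level was the greatest fall of the members (-2.75 ± 0.39; adjusted p = 0.00109). C1qbp, a protein mainly of the mitochondrial matrix, is named for binding C1q. C1qbp had 7.30, 8.97 and 7.06 CPM in CG and 35.6, 32.0 and 25.5 CPM in EG. Its level was 3.99-fold higher (1.99 ± 0.18, adjusted p = 0.000163 by edgeR). Both passed in all 12 alternatives. Complement receptor 1 stayed under 10 CPM and did not pass.

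Markers of other liver cells are given beside Cd93. Of all tested genes 21.7% fell and 23.7% rose. Of 8 tested macrophage and leukocyte markers, 3 fell (37.5%) and 1 rose, and their 11 genes summed to 83.1 to 122 CPM in CG and 58.2 to 117 CPM in EG. Of 14 tested endothelial and stellate markers, 3 fell (21.4%, the general share) and 0 rose (5 lower and 0 higher both at an unadjusted p under 0.05 and by DESeq2), with sums of 1330 to 1747 CPM in CG and 829 to 1567 CPM in EG. STAB2, a scavenger receptor of liver sinusoidal endothelium in mammals, had 26.6, 29.5 and 16.9 CPM in CG and 5.47, 4.57 and 6.67 CPM in EG. It was named after its values were seen and was the largest fall of that list (log2 fold change -2.13), whose median was -0.56. Both PECAM1 genes fell as well (-0.84 and -1.27, adjusted p = 0.0151 and 0.00739 by edgeR), so the 3 falls called by edgeR were endothelial markers. Genes for the stellate marker COL1A1 were at -0.77, -0.61 and 0.006 without passing (adjusted p = 0.0637, 0.133 and 0.99 by edgeR). The endothelial marker VWF was at -0.99 without passing (adjusted p = 0.0633). The endothelial markers kdr (0.23) and CDH5 (-0.10) and the stellate marker DCN (0.22) did not pass. Of 7 erythrocyte markers, 4 fell (57.1%) and 0 rose by edgeR, with a median log2 fold change of -0.94 and sums of 4150 to 10538 CPM in CG against 2090 to 4233 CPM in EG. The part of these cells in the changes of Cd93, factor XIII and factor VIII was not tested.

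The C1q-like genes that could be tested all rose, 3 of 3, while 7 others had no or few reads. Of all tested genes 23.7% rose, and of those with a mean of at least 10 CPM 37.7% rose. C1q-like proteins are small, secreted and carry the globular domain of C1q. In mammals the proteins C1QL2 and C1QL4 are known from the nervous system and fat rather than from complement activation. C1QL4-A had 425, 302 and 188 CPM in CG and 1128, 798 and 1162 CPM in EG (1.76 ± 0.30; adjusted p = 0.00257).

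C1QL2-A had 483, 585 and 543 CPM in CG and 929, 1042 and 2287 CPM in EG (1.40 ± 0.34; adjusted p = 0.0107), and C1QL2-B, its neighbour on scaffold 558, had 261, 330 and 362 CPM in CG and 639, 534 and 1364 CPM in EG (1.41 ± 0.35; adjusted p = 0.0121). Gc was highest for both neighbours, and no EG library fell within CG. The count ratio of the neighbours overlapped between the groups, so they may not be separate observations. Without G1 the adjusted p of C1QL2-B was 0.0517, within a range of 0.000128 to 0.0517. Matches of the 3 genes were weak (E values 7.16e-08, 6.85e-09 and 8.85e-12), so the names may mark only a C1q domain. With FPKM of 786 and 466 in CG, both C1QL2 copies were expressed above C7-A at 241. The 3 tested C1q tumor necrosis factor-related genes had a median log2 fold change of -0.89, and 0 of them passed by edgeR, with 1 lower at an unadjusted p under 0.05 and 1 by DESeq2.

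Coagulation genes took 2.48% ± 0.0733 of all counts in CG and 2.90% ± 0.199 in EG, with no overlap and a difference of 0.422 percentage points. Fibrinogen alpha (FGA) alone took 0.896% ± 0.0603 of all counts in CG and 1.49% ± 0.25 in EG. FGA held 35.2% to 37.7% of the coagulation counts in CG and 46% to 57% in EG. On the FPKM scale, where long genes weigh less, the share of the 29 genes differed by 0.0586 percentage points, within the spread of the libraries. On that scale FGA took 0.288% in CG and 0.474% in EG, of 1.58% and 1.64% for the 29 genes, so its part was smaller than by counts.

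FGA, the chain from which thrombin releases fibrinopeptide A, was the only coagulation gene with a rise above 2-fold. It had 8536, 7840 and 7531 CPM in CG and 20944, 15750 and 14023 CPM in EG, Ga being highest and all EG libraries lying above CG (1.09 ± 0.18; adjusted p = 0.00225, at most 0.0128 over 12 alternatives). No member carried the name of a beta or gamma chain, so these chains were not analysed here.

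Both genes for the A chain of factor XIII, the transglutaminase that cross-links fibrin, fell. F13a1-A had 42.7, 47.3 and 48.6 CPM in CG and 25.0, 10.3 and 11.3 CPM in EG (-1.57 ± 0.33; adjusted p = 0.0058), with Ga between CG and the other EG libraries. In mammals this chain comes largely from macrophages and megakaryocytes rather than hepatocytes. F13A1-B, named after its values were seen, had 17 to 23 reads a library in CG and 3 to 6 in EG (-1.81 ± 0.56; adjusted p = 0.0305). Its call was lost without any 1 of G1, G2, G3, Ga or Gc, with adjusted p-values of 0.0895, 0.112, 0.0857, 0.0852 and 0.09, within a range of 0.018 to 0.112 over its alternatives.

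Of the vitamin K-dependent zymogens, 4 of 8 were lower (50%) and 0 higher by edgeR, beside 21.7% and 23.7% of all tested genes. At an unadjusted p under 0.05 and by DESeq2, 4 were lower and 2 higher. Protein C, also vitamin K-dependent by its name, is counted with the inhibitors of clotting below. F7-B, F10-A and F7-C, which are among the 4, are neighbours on scaffold 124 and may not be separate observations. F7-B, a copy of factor VII, the protease that tissue factor activates, had 757, 792 and 760 CPM in CG and 404, 277 and 348 CPM in EG. It was 2.25-fold lower, with a gap between the groups far wider than their spread (-1.17 ± 0.17; adjusted p = 0.00127), and passed in all 12 alternatives. F7-C had 407, 406 and 353 CPM in CG and 285, 285 and 266 CPM in EG (-0.48 ± 0.14; adjusted p = 0.0226). F7-A ran from 335 to 397 CPM in CG and from 275 to 307 CPM in EG, without overlap and without passing (-0.32 ± 0.14; adjusted p = 0.0986).

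Of factors IX and X, which act in sequence to make thrombin, 1 of 2 copies each fell, by less than 1.5-fold. F9-A had 470, 443 and 467 CPM in CG and 330, 337 and 333 CPM in EG, a tight fall without overlap (-0.47 ± 0.13; adjusted p = 0.0204). F10-A had 782, 834 and 711 CPM in CG and 582, 517 and 575 CPM in EG (-0.47 ± 0.14; adjusted p = 0.028). F9-B, the second factor IX copy, had 172, 119 and 170 CPM in CG and 255, 306 and 157 CPM in EG, where Gc lay within CG (0.64 ± 0.26; adjusted p = 0.08). The counts of both factor IX copies summed gave -0.12. F10-B ran from 8.63 to 10.6 CPM in CG and from 6.51 to 10.8 CPM in EG (-0.10 ± 0.22; adjusted p = 0.749). Without Gc, F9-B was 0.87 with an adjusted p of 0.0156, within a range of 0.0156 to 0.398 over 12 alternatives.

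The small falls kept their size without single libraries, and their adjusted p passed the threshold in fewer cases. The log2 fold change nearest to 0 over all 12 alternatives was -0.44 for F7-C, -0.45 for F9-A and -0.42 for F10-A. F7-C had adjusted p-values of 0.0765 without G1, 0.0828 without G2 and 0.0547 without Gc. F9-A had 0.0638 without G1, 0.0574 without G2, 0.0647 without G3 and 0.0526 without Ga, and F10-A had 0.0728 without G1, 0.107 without G2, 0.0541 without Ga, 0.0709 without Gb and 0.0503 without Gc. The adjusted p ran over these alternatives from 0.00171 to 0.0828 for F7-C, from 0.000877 to 0.0647 for F9-A and from 0.00224 to 0.107 for F10-A.

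Prothrombin (F2), the precursor of thrombin, had 1981, 2162 and 1848 CPM in CG and 2560, 2455 and 2633 CPM in EG. The EG libraries lay above CG, and the difference did not pass (0.35 ± 0.14; adjusted p = 0.0722). Factor V, the cofactor of factor X, had 348, 314 and 333 CPM in CG and 617, 409 and 383 CPM in EG, Ga being highest (0.50 ± 0.20; adjusted p = 0.0763). Without Gc its adjusted p was 0.0454, within a range of 0.042 to 0.542 over 12 alternatives. Factor VIII, the cofactor of factor IX, which mammals make in endothelial cells, had 176, 243 and 153 CPM in CG and 115, 87.1 and 124 CPM in EG (-0.81 ± 0.22; adjusted p = 0.0174). Without G2 it was -0.59 with an adjusted p of 0.0677, the highest of its alternatives.

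Of the 3 inhibitors of clotting 0 passed by edgeR, 0 at an unadjusted p under 0.05 and 0 by DESeq2. Protein C (PROC), which inactivates factors V and VIII, had 1640 to 1862 CPM in CG and 1954 to 2060 CPM in EG. Antithrombin (SERPINC1) had 1296 to 1489 and 1598 to 1937 CPM, and heparin cofactor 2 (SERPIND1) 403 to 512 and 368 to 427 CPM. Their log2 fold changes were 0.21 ± 0.14, 0.31 ± 0.15 and -0.17 ± 0.15. The first and the second turned negative with library totals, at -0.12 and -0.03.

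Kininogen-A, the precursor of bradykinin and a cofactor of contact activation in mammals, had 2292, 2405 and 2301 CPM in CG and 3569, 3390 and 4186 CPM in EG. It was 1.59-fold higher with no overlap (0.67 ± 0.15; adjusted p = 0.00729), and with library totals 0.33 with an adjusted p of 0.0943, the highest of its alternatives. Plasminogen, the zymogen of plasmin, was flat within its spread at 2387, 2414 and 2528 CPM in CG and 2555, 2473 and 2538 CPM in EG (0.05 ± 0.13; adjusted p = 0.802). Plasminogen activator inhibitor 1 stayed under 3 CPM. PLGRKT, a plasminogen receptor and the coagulation gene closest to the threshold from outside, had 15.1 to 17.8 CPM in CG and 10.4 to 14 CPM in EG (adjusted p = 0.0529).

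FGL1L, the 1 tested gene with a fibrinogen-like name, had the smallest adjusted p of all members. It had 36.9, 37.9 and 41.9 CPM in CG and 11.6, 9.91 and 12.6 CPM in EG, 3.42-fold lower with tight groups (-1.78 ± 0.15; adjusted p = 0.000125). Fibrinogen-like proteins share the C-terminal domain of fibrinogen and are not part of the clot, and its KEGG entry is fibrinogen-like protein A.

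**Figure D3:**
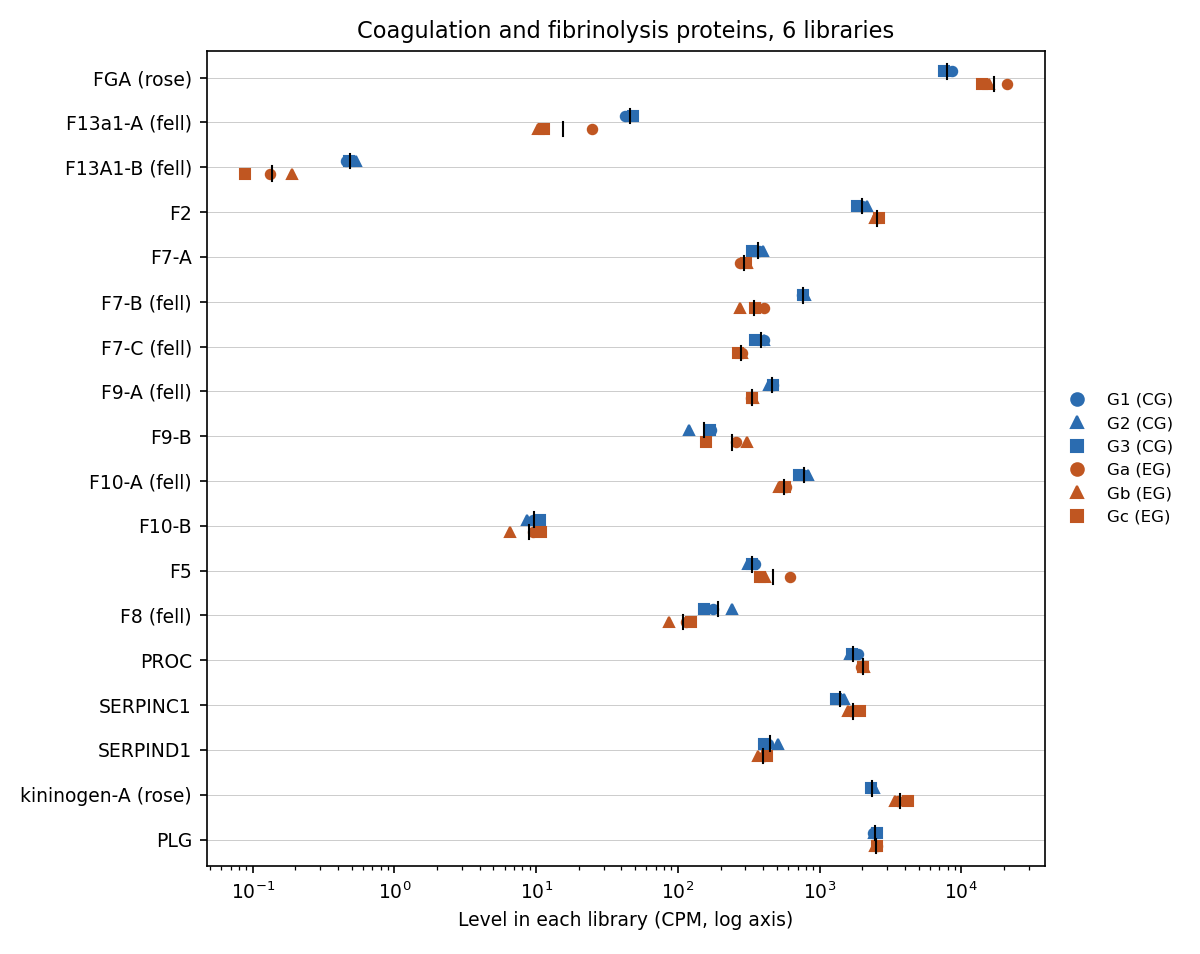
CPM on a log axis of the 18 tested coagulation and fibrinolysis proteins of the cascade in each library; symbols are libraries (blue CG, orange EG) and black ticks are group means of 3 libraries. FGA and kininogen-A lie to the right of CG in EG, F7-B, F8 and both factor XIII genes to the left, and plasminogen overlaps between 2473 and 2528 CPM.

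Several members adjoin each other on the scaffolds of the unpublished genome, and their counts were set against each other within each library. Such a ratio does not depend on how libraries are scaled. Ratios were taken for 18 pairs chosen with the results known. Several pairs share a member, such as F7-B or C7-A, so the pairs are not separate observations. Among the 18 pairs, 11 did not overlap between the groups, beside 57.8% of all tested genes taken singly by CPM. The share among other pairs of genes was not tested, so the count does not set these pairs apart. Each of the 11 reached 0.1, the smallest p that an exact two-sided permutation test of 3 against 3 libraries can give, with an adjusted value of 0.164 over the 18 pairs, so no pair could pass.

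On scaffold 124, F7-A, F7-B, F10-A and F7-C followed each other on 1 strand with 458, 2192 and 2140 bases between them, from base 2123399 to base 2142040, and F2 lay 2 genes further on. F10-A and F7-C kept a ratio of 1.92 to 2.05 in CG and 1.82 to 2.16 in EG. The ratio of F7-B to F10-A went from 0.951 to 1.07 in CG to 0.534 to 0.693 in EG, and that of F7-A to F7-B from 0.442 to 0.501 in CG to 0.682 to 1.11 in EG. F7-C against F2 was 0.188 to 0.206 in CG and 0.101 to 0.116 in EG. The ratios of F7-B to both of its neighbours thus did not overlap between the groups.

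C6 and C7-A lay tail to tail on scaffold 31, 1641 bases apart, with C6 from base 3049388 to 3064893 and C7-A from 3066535 to 3076161. C6 had 2.37 to 3.57 counts for each count of C7-A in CG and 0.443 to 1.29 in EG. The ratio of C7-A to C7-B was 4.59 to 6.99 in CG and 13.7 to 44.9 in EG. By contrast C8A and C8B, 306 bases apart, had ratios of 1.34 to 1.57 in CG against 1.22 to 1.40 in EG. The C1QL2 neighbours had 0.541 to 0.666 against 0.512 to 0.688. F9-A against F9-B was 2.73 to 3.72 in CG and 1.10 to 2.12 in EG. Genes so close may overlap in their untranslated ends, which the coding lengths do not show.

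**Figure D4:**
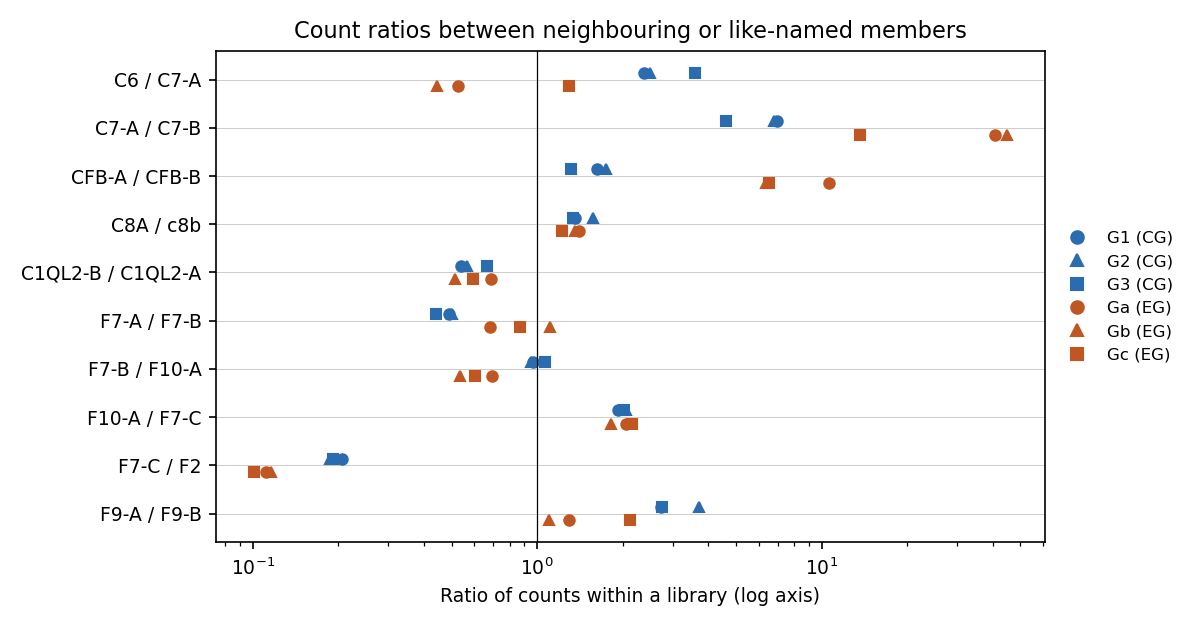
Ratio of counts between 2 members within each library on a log axis, for neighbours on a scaffold and copies of 1 name; symbols are libraries (blue CG, orange EG) and the line marks equal counts. F10-A / F7-C, C8A / c8b and C1QL2-B / C1QL2-A overlap between the groups, whereas C6 / C7-A, CFB-A / CFB-B and F7-A / F7-B do not.

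Other genes, most but not all of them of the cascades, that the names do not catch were taken from a list of 57 symbols, which matched 53 genes. Of the 44 tested, 3 rose, 12 fell and 29 did not pass, with a median log2 fold change of -0.45. These are 6.82% and 27.3%, beside 23.7% and 21.7% of all tested genes, so the share that fell was near the general one. The genes below were named after their values were seen. Of 2 genes for Masp2, a protease of the lectin pathway, the lesser had 24.2, 29.7 and 25.8 CPM in CG and 10.4, 7.75 and 11.1 CPM in EG (-1.45; adjusted p = 0.00058). The more abundant one, at 163 to 226 CPM in CG and 107 to 171 CPM in EG, did not pass (-0.52; adjusted p = 0.0774). Of the lectins of that pathway, colec10 fell (-0.92; adjusted p = 0.0197) and colec11 did not pass (-0.32; adjusted p = 0.25), nor did the protease Masp1 (-0.21; adjusted p = 0.304). GGCX, the carboxylase on which the vitamin K-dependent zymogens rely, had 76.4, 70.8 and 71.6 CPM in CG and 42.1, 57.6 and 38.0 CPM in EG (-0.67; adjusted p = 0.0172). MCFD2, part of the receptor that carries factors V and VIII out of the endoplasmic reticulum in mammals, fell too (-0.48; adjusted p = 0.0375).

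Of 3 thrombomodulin genes (Thbd), 2 fell (-1.36 and -1.45; adjusted p = 0.013 and 0.0044 by edgeR) and 1 did not pass (-0.68; adjusted p = 0.113). PLAT, an activator of plasminogen, fell (-1.40; adjusted p = 0.00857). Of 2 genes for ITGAM, part of a receptor of cleaved C3, 1 fell (-1.99; adjusted p = 0.000763) and 1 did not pass (-0.03; adjusted p = 0.956). Its partner chain ITGB2 (-0.73; adjusted p = 0.135), the receptors c5ar1 (-1.05; adjusted p = 0.21) and c3ar1 (-1.34; adjusted p = 0.151) and the platelet-binding protein VWF (-0.99; adjusted p = 0.0633) did not pass. Of 2 genes for SERPINF2, the inhibitor of plasmin, 1 rose (0.50; adjusted p = 0.0328) and 1 did not pass (-0.33; adjusted p = 0.167). TMEM59, which is on the list but is not a complement or clotting protein, rose (0.90, adjusted p = 0.00109 by edgeR). A gene for F2RL2 rose too, with no reads in CG and only 0.35, 2.48 and 2.81 CPM in EG. Several abundant partners had positive log2 fold changes without passing, namely SERPING1 (0.11), properdin (Cfp, 0.43), clusterin (CLU, 0.24) and plasma kallikrein (Klkb1, 0.31). The more abundant gene for vitronectin (VTN) was at -0.42 without passing, and the lesser fell (-0.81, adjusted p = 0.00908 by edgeR). Of other plasma proteins of the liver, chosen as a comparison, 12 of 29 tested rose and 4 fell, with a median of 0.37. These shares of 41.4% and 13.8% are near those of genes with a mean of at least 10 CPM.

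The names rest on sequence matches to other species. As for C1qc, matches were weak and without a KEGG entry for C3-D, complement receptor 1 and factor V (E values 5.57e-12, 4.14e-09 and 5.19e-15). In the deposited table C7-A is fugu_GLEAN_10018299, CFB-A is fugu_GLEAN_10015306, CFB-B is fugu_GLEAN_10003914, C3-E is fugu_GLEAN_10004682, FGA is fugu_GLEAN_10000117, F7-B is fugu_GLEAN_10012758 and Cd93 is fugu_GLEAN_10002036. Only 15 of the 70 members have a KEGG entry, which names the same protein for 10, another protein for 3 (C3-E and CFB-B among them) and an unnamed or related protein for 2. A further 9 assembled transcripts outside the gene annotation carried predicted complement or coagulation names and were not members. Of these, 4 fell and 0 rose by edgeR, at an unadjusted p under 0.05 and by DESeq2 alike, namely 3 C3-like fragments and 1 factor VII-like transcript. By edgeR 21.7% of all tested genes fell and 23.7% rose. Whether the 3 C3-like fragments, of 370, 551 and 612 bases, come from separate genes was not tested.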

How the data were processed

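Liver RNA of 6 pools was sequenced as paired reads. The authors aligned reads to an unpublished genome with HISAT2 2.0.4 and deposited whole-number counts a gene, and FPKM, made with RSEM 1.2.3; genome build and annotation are not given in the sources used here. The deposited FPKM values are counts per coding length and library sum (97.6% lie within 0.1% of that ratio; 96.6% of lengths are multiples of 3). Deposited columns with the authors' own group means, DESeq-scaled means, fold changes and p-values were not used. One line of the table was blank and is not analysed here, and 1 complement gene is counted but not reported by itself.

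Members and lists were chosen with earlier results of these data known. The deposited counts were tested with edgeR 4.0.16 in R 4.3.3 (filterByExpr, TMM with factors of 0.824 to 1.15, quasi-likelihood F test, Benjamini-Hochberg over 14357 genes); the SE is the log2 fold change divided by the root of F, and the common coefficient of variation was 29.6%. The test was also run on simulated counts, which had a smaller spread than these data and few changed genes, each with a fold above 2. That run therefore does not check the small changes or the scaling of libraries. Cascade members with a mean of at least 10 CPM are described, those passing with each library's value, and others where they pass with a fold above 2 and a mean of at least 1 CPM. Ratios within a library had 0.5 added to each count for the test only. Alternatives were RLE, upper quartile and library total scaling, DESeq2 1.42.0, other low-count filters, copies of a name summed, and each library left out. Library days or batches are not labelled; any that coincided with temperature cannot be told apart from it.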

Additional observations from a re-analysis of the deposited data

How the results depend on the processing

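Of the 22 members called, 12 passed in every one of 12 alternatives that keep copies apart: C3-E, CFB-A, CFB-B, C7-A, Cd93, C1qbp, C1QL2-A, C1QL4-A, FGA, F13a1-A, F7-B and FGL1L. Complement genes that fell numbered 2, but 8 with library totals, 7 with upper quartile factors, 4 with DESeq2 and 1 with copies summed. Coagulation genes that rose numbered 2, but 1 with library totals and 6 with DESeq2. Leaving out 1 library gave 7 to 11 complement genes that rose and 2 to 4 that fell, and 2 to 4 coagulation genes that rose and 3 to 7 that fell (5 without Ga). The difference in share of counts ran from 0.219 to 0.656 percentage points for complement and from 0.358 to 0.537 for coagulation, and was 0.184 and 0.0586 by FPKM. Library totals moved the median of all genes to -0.37 and upper quartile factors to -0.22, with 2024 and 2599 genes that rose and 4514 and 3902 that fell, against 3398 and 3113.

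Directions turned only for members that had not passed, except CFB-B when summed. With library totals they turned for CFD (-0.037), C6 (-0.12), C7-B (-0.34), C8A (-0.19), c8b (-0.086), c9 (-0.026), PROC (-0.12), SERPINC1 (-0.025) and PLG (-0.29), and with upper quartile factors for C7-B (-0.17), C8A (-0.046) and PLG (-0.15). Summing copies gave 0.61 for C3-B and C3-C, 0.80 for CFB-B and CFB-C, -0.12 for F9-B and 0.30 for SERBP1-B, each the value of the summed gene. C7-B was -0.0074 with the stricter filter, -0.050 without G1, -0.022 without Ga and -0.28 without Gc. C1ra was 0.010, 0.066 and 0.11 without G1, G2 and Gb, and F10-B was 0.10 without Gb. Apart from summing and scaling, the cause was not tested. No paired analysis was possible because the libraries of CG and EG carry different names and no label ties one to another. Groups of 3 are too small for a test of outlying libraries.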
